A study of Saccharomyces cerevisiae with 118 samples.

Results

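The retrotransposon genes of budding yeast are described here across diets, ages, media shifts, strains and sorted fractions of replicatively ageing cells. Members were the nuclear rows whose description contains the word retrotransposon, which gave 90 of 6664 nuclear rows. Each row was put in its Ty class by the annotated element it lies in (84 rows), by its description (4 rows) or, for 2 rows outside any annotated element, by the class whose sequence it shares most. Ty1 had 62 rows, Ty2 had 20, and Ty3 and Ty4 had 4 each. They come from 45 full-length elements, 31 of them Ty1, 10 Ty2, 2 Ty3 and 2 Ty4. Of the rows, 46 are TYA (the Gag reading frame) and 44 are TYA-TYB (Gag with the polymerase). Of the TYA rows 41 overlap a TYA-TYB row, so the rows of an element are not independent measurements. No host gene met the rule.

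Ty elements are retrotransposons bounded by long terminal repeats: the element is transcribed into an RNA that is both the messenger for its proteins and the template from which a new DNA copy is made. TYA encodes Gag, the coat of the virus-like particle, and TYB encodes the protease, integrase, reverse transcriptase and RNase H, which are made only when a ribosome shifts frame near the end of TYA. Ty1, Ty2 and Ty4 are related to one another (the copia group), whereas Ty3 belongs to the gypsy group, and all of them tend to insert upstream of genes transcribed by RNA polymerase III, mainly tRNA genes. Ty1 transcription is known to respond to Tec1 and Ste12, the factors of filamentous growth, to Gcn4, the activator of amino acid synthesis genes, and to chromatin cofactors, while Ty3 is known for its induction by mating pheromone through Ste12.

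The cells were diploids of the Mother Enrichment Program (MEP), in which β-estradiol stops daughters from dividing so that labelled mothers can be recovered at great age; all groups carry this system and grew in rich YP medium with the carbon source named, so an aged sample holds mothers selected by purification and not an unselected culture. In the largest table, wild type on galactose (YPGal) had 3 samples per age (log phase, 24 h, 48 h), fructose had 2 at each age, and glucose (YPD) had 3 in log phase with 4, 4 and 1 after 24 h, 48 h and 72 h. Sucrose, raffinose with galactose, raffinose and acetate (YP KOAc) had 1 wild-type sample per age there and entered no test. Strains in that table were cox9 gal80 on galactose (no COX9, a respiratory chain subunit, and no GAL80, the repressor of the galactose genes), cat8 on galactose (no CAT8, an activator of genes for non-fermentable carbon), each with 2 samples per age, snf4 on galactose (no SNF4, a subunit of the Snf1 kinase) with 1 sample at log phase and 2 at 24 h, and PGPD-HAP4 on glucose (HAP4, an activator of respiration genes, driven by the strong GPD promoter) with 2 per age. A media shift table held 8 wild-type groups of 3 experiments each, among them cells moved at 24 h to the other sugar (YPD->YPGal, YPGal->YPD) or kept on the same one (YPD->YPD, YPGal->YPGal). A table of 13 deletion strains on glucose (adr1, cat8, clb5, dot6 tod6, gcn4, hap4, mig1, pmr1, rox1, sip4, snf4, tec1 and yak1) had 1 sample per strain and age beside 2 of wild type, and a table of cells sorted by wheat germ agglutinin (WGA, which binds bud scars) had PGPD-HAP4 cells at 48 h in low, medium and high fractions from 2 experiments and wild-type cells in 1. Poly(A) RNA was read, so the values are RNA levels, and in a bulk sample fewer cells making an RNA and less RNA per cell cannot be told apart.

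Values are normalised counts, 2 raised to the log2 value that the authors deposited, unless stated otherwise, and a class sum is the total of its rows in 1 sample. The SE of a difference in class sums ignores which samples share an experiment. Libraries held 2901884 to 15288342 counted reads in the largest table, 4542794 to 16704695 in the media shifts, 3725321 to 22453467 in the deletion strains and 561582 to 11597361 in the sorted fractions. Each deleted gene had at most 10.1 normalised counts in its strain, and HAP4 had 3896 to 8754 in PGPD-HAP4 against 254 to 1950 in wild type on glucose. A replicate is an experiment, as the titles give it, or lane6854, a sequencing lane whose titles give no experiment. The exceptions are cox9 gal80, cat8 and snf4 on galactose, whose samples all come from experiment E56, and p-values measure only the spread between these samples.

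One copy stands for each class, and its shift site is printed because it is the feature that joins TYA to TYB in Ty elements. The sequences are from the RefSeq R64 genome, 5′ to 3′ on the strand of the gene, with the heptamer on which the ribosome changes frame in capitals.
Ty1, YJR027W, chrX:474045-474085 (+): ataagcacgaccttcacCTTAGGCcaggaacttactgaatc
Ty2, YLR410W-B, chrXII:942756-942796 (+): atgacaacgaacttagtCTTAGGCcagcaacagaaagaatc
Ty3, YGR109W-B, chrVII:708445-708485 (+): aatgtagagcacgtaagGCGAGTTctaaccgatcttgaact
Ty4, YHL009W-B, chrVIII:86975-87015 (+): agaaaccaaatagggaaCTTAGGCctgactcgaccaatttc
The heptamers were searched from 300 bases before to 20 bases after the end of each TYA row. CTTAGGC was found in 32 of 32 TYA rows of Ty1, in 10 of 10 of Ty2 and in 1 of 2 of Ty4, and GCGAGTT was found in both TYA rows of Ty3. The Ty4 row without a match, YJL114W, is 681 bases long, against 1242 for YHL009W-A. A site further into its element would have been missed.

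The first bases of the elements show how alike Ty1 and Ty2 are at the start of the repeat and how far Ty3 departs from both. The TG that opens the repeat is in capitals.
YJRWTy1-1, chrX:472463-472502: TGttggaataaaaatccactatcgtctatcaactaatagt
YLRWTy2-1, chrXII:941192-941231: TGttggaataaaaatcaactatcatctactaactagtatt
YGRWTy3-1, chrVII:707195-707234: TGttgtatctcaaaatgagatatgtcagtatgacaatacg
YJLWTy4-1, chrX:197545-197584: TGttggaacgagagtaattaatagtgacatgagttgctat
Elements of Ty1 were 5493 to 6028 bases long, those of Ty2 5951 to 5961, those of Ty3 5351 to 5428 and those of Ty4 6223 to 6224. A tRNA gene lay within 1000 bases of 24 of 31 Ty1 elements, 7 of 10 Ty2 elements, 2 of 2 Ty3 elements and 2 of 2 Ty4 elements.

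The core of the site that Tec1 binds, CATTCC, was searched on both strands in the first 1000 bases of each element. It was found in 21 of 31 Ty1 elements (67.7%), in 7 of 10 Ty2 elements and in both elements of Ty3 and of Ty4, against 37.2% of 12063 windows of the same length across the genome. The windows below show it (capitals) in 2 Ty1 copies whose RNA behaved differently, as given below, and in 1 Ty3 copy.
YJR027W, chrX:472626-472655 (+): aacatataaaacGGAATGaggaataatcgt
YMR045C, chrXIII:362732-362761 (-): aacatataaaacGGAATGaggaataatcgt
YMR045C, chrXIII:362586-362615 (-): caattatctcaaCATTCCcccatttctcat
YGR109W-B, chrVII:707412-707441 (+): taagataagtaaCATTCCgtgaattaatct
The first window was identical in both Ty1 copies. No match was found in the elements of YJR029W, YDR261C-D and YLR227W-B, whose RNA is also described below. A match is a description of letters and was not tested as a binding site.

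How well a copy can be told from its relatives differed greatly between rows. Windows of 75 bases, the length of a read, were counted along each TYA-TYB row, and those that occur once in the genome were taken as readable for that copy alone. Ty1 TYA-TYB rows had a median of 75 such windows (0 to 1003), Ty2 rows 293 (0 to 1203), the Ty4 rows 146 and 1653, and the Ty3 rows 2141 and 2176. Of the 44 rows 10 had none, and 8 of these 10 had a median of at most 5 normalised counts in the largest table. Of the 24 rows with at least 100 such windows, 21 had a median of at least 20. Of all 90 rows, 49 had a mean log2 value of at least 2 in that table (35 Ty1, 10 Ty2, 2 Ty3 and 2 Ty4), and 3 had no read in any of its samples. How reads that match several copies were treated is not given in the sources used here.

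**Figure D1:**
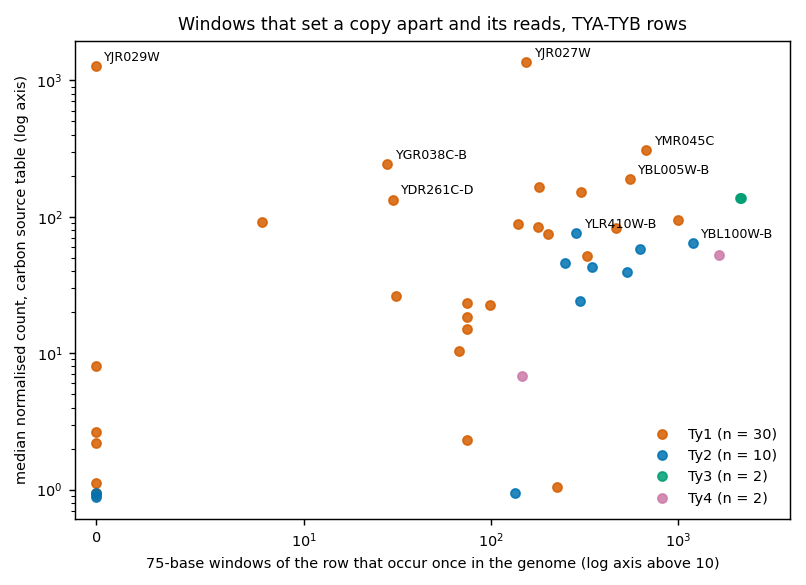
Each point is 1 TYA-TYB row, with the number of 75-base windows that occur once in the genome on the x axis and the median normalised count over the samples of the largest table on the y axis, coloured by class. Rows without such windows lie near the bottom except YJR029W at 1274 and YPR137C-B at 8.10, and the Ty3 rows, with over 2000 windows, sit near 138.

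The Ty1 class was carried by few copies. Per 1000 bases of row, YJR027W (chrX:472760-478028) had a median of 256.7 normalised counts over the largest table and its neighbour YJR029W (chrX:478344-483612) 241.9. Far below them came YMR045C (chrXIII:357359-362627) at 58.5, YGR038C-B at 45.9, YBL005W-B (chrII:221330-226598) at 35.7, YLR227W-B (chrXII:593438-598706) at 31.4 and YPR158C-D (chrXVI:850989-856257) at 28.9. The Ty3 rows YIL082W-A (chrIX:205635-210132) and YGR109W-B (chrVII:707610-712254) stood among these at 30.4 and 29.7 per 1000 bases. The leading Ty2 row was YLR410W-B (chrXII:941483-946796) at 14.2, close to YBL100W-B (chrII:29935-35248) at 12.0, and the leading Ty4 row was YJL113W (chrX:198678-203325) at 11.2. All values below are normalised counts per row, not scaled to length, and are compared within a row or a class sum.

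YJR027W and YJR029W are separated by 315 bases and differ at 178 of 5269 positions, with 62.3% of windows shared. Their counts were almost equal in 47 samples of the largest table outside lane6854 (ratio 0.88 to 1.09, median 1.06), and in lane6854 the ratio ran from 0.935 to 1.34. The pair is therefore described as 1 source and their split is uncertain. Together their 4 rows held 20% to 69.2% of the Ty1 sum (median 56.8%) in the largest table. YGR038C-B was the clearest case of a row that followed the sequencing lane: it had at most 3 normalised counts in all samples of lane6854 and at least 41 in all others. Glucose at 48 h gave 2.93 in lane6854 and 446 to 689 in the other 3 experiments. It is used below only in experiments outside that lane.

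With age on glucose the Ty1 and Ty3 sums were higher at both time points, while the Ty2 sums of old and log-phase cells overlapped. At 24 h Ty1 was at 8305, 9659 and 8815 in experiments E30_1, E30_2 and E34 and at 4377 in lane6854. At 48 h it was at 9213, 9410, 11138 and 9749, against 3882, 4052 and 2461 at log phase in E30_2, E34 and lane6854. All aged samples lay above all log-phase samples. The 24 h mean was 1.14 ± 0.35 above log phase (log2, SE, n = 4 and 3) and the 48 h mean 1.54 ± 0.24, and the single sample at 72 h was at 12967. With each sample rescaled by quantile normalisation the differences in the sum were 0.81 and 1.27. The chromosome X pair held much of this: without it the differences were 0.63 and 0.80, and the median over Ty1 rows differed by 0.27 and 0.10.

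Ty3 on glucose had 471, 368, 533 and 311 normalised counts at 24 h and 413, 521, 614 and 344 at 48 h, against 206, 200 and 220 at log phase. Every aged sample was above the log-phase samples, with differences of 0.98 ± 0.18 at 24 h and 1.15 ± 0.19 at 48 h (log2, SE), and the 72 h sample had 652. On the quantile scale these were 0.52 and 0.42. Ty2 had 357 to 475 at 48 h, against 330 to 485 at log phase, an overlap, with a difference of 0.14 ± 0.19 on the deposited scale that becomes -1.28 on the quantile scale. Ty4 had 78.1, 105, 70.8 and 113 at 48 h against 54.96, 59.0 and 47.0 at log phase (0.75 ± 0.19, without overlap), and this too changes sign on the quantile scale, to -0.76. The median over all genes tested moved by 0.04 on the deposited scale and -0.12 on the quantile scale between log phase and 48 h.

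On galactose Ty1 was also higher at 48 h, and the Ty3 sums of old and log-phase cells overlapped. The Ty1 sum was 2253, 2819 and 1112 at log phase in E34, E56 and lane6854, 4699, 5342 and 2462 at 24 h, and 5329, 6319 and 3070 at 48 h. In each of the 3 experiments the 24 h and the 48 h values were above their own log-phase value, and the 48 h group lay above the log-phase group (1.29 ± 0.51, log2, SE, n = 3 each; 0.96 on the quantile scale). At 24 h the groups overlapped across experiments (1.04 ± 0.53). Ty3 had 283, 258 and 192 at 48 h against 236, 239 and 199 at log phase, an overlap, with 0.11 ± 0.19 (-0.19 on the quantile scale). Ty2 was lower at 48 h, with 406, 368 and 338 against 528, 427 and 471 (-0.36 ± 0.12, without overlap; -0.88 on the quantile scale). On fructose Ty1 was at 8720 and 5149 at 48 h against 3381 and 1693 at log phase in E34 and lane6854 (1.49 ± 0.63, without overlap), and Ty3 at 411 and 258 against 249 and 214 (0.50, without overlap; -0.20 on the quantile scale).

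**Figure D2:**
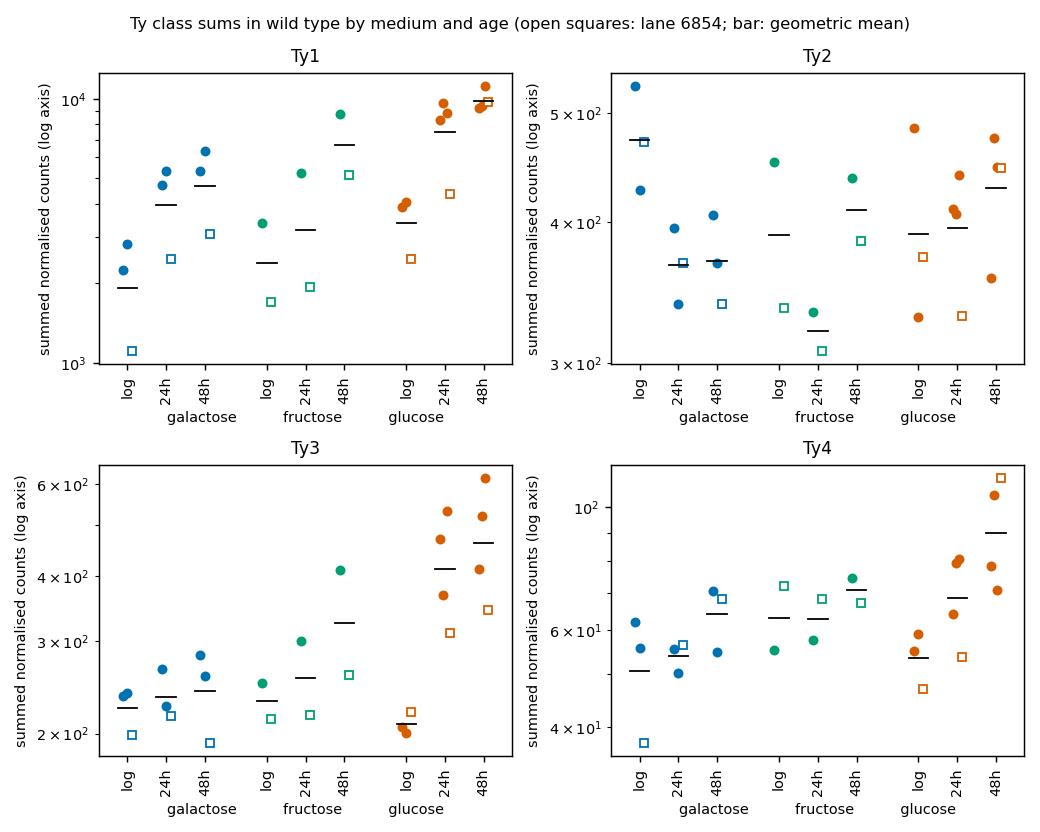
Each panel gives 1 Ty class, with the class sum of each wild-type sample in normalised counts on a log axis against age (log phase, 24 h, 48 h) for galactose, fructose and glucose; open squares are lane6854 and bars the geometric mean. Ty1 is higher at 48 h than at log phase in every medium, Ty3 reaches 344 to 614 on glucose at 48 h and stays at 192 to 283 on galactose.

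The sugars differed in Ty1 and Ty3 and, beyond the spread, most plainly in old cells. Ty1 at 48 h was at 5329, 6319 and 3070 on galactose against 9213 to 11138 on glucose (-1.07 ± 0.32, log2, SE, without overlap; -1.19 on the quantile scale). At log phase the difference was -0.82 ± 0.47 and at 24 h -0.92 ± 0.43, and in both cases 1 lane6854 sample of glucose fell among the galactose samples, so the groups overlapped. Within lane6854 the galactose and glucose sums at log phase were 1112 and 2461, within E34 they were 2253 and 4052. Ty3 was apart at 24 h (265, 226 and 217 on galactose against 311 to 533 on glucose, -0.81 ± 0.20) and at 48 h (-0.94 ± 0.25), but at log phase it was at 236, 239 and 199 on galactose and 206, 200 and 220 on glucose. The ageing change to 48 h on galactose minus that on glucose was -1.04 ± 0.27 for Ty3 (-0.61 on the quantile scale) and -0.25 ± 0.56 for Ty1.

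Single rows were tested with limma across all genes on quantile-normalised log2 values, with Benjamini-Hochberg adjustment, and a row was called where its adjusted p was under 0.01. Between log phase and 48 h on glucose, where 48.5% of all genes tested passed (20% higher and 28.5% lower), 25 of the 50 members that passed the filter on low values did, 6 higher and 19 lower. That share is near the background. On the deposited scale the split was 16 higher and 3 lower. The members' median was -0.73 against -0.12 over all genes on the quantile scale, and 0.80 against 0.04 on the deposited scale. Ty1 had 6 higher and 13 lower of 35, Ty2 had 5 lower of 10, Ty3 had none of 3 and Ty4 had 1 lower of 2. Only rows called the same way on both scalings are called risen or fallen below, and no row was called in opposite directions.

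At 48 h on glucose 6 Ty1 rows rose on both scalings: YJR027W, YJR029W, YDR261C-D, YOL103W-B, YPR158C-D and YLR227W-B, all of them TYA-TYB rows that encode Gag and the polymerase. In limma each of them kept its adjusted p under the threshold in all 15 alternatives tried. YJR027W had 2556, 2723, 2826 and 3133 normalised counts at 48 h against 561, 644 and 409 at log phase, with 2073, 2459, 2230 and 1126 at 24 h between them. Its change to 48 h was 2.55 ± 0.15 (log2, SE, limma adjusted p = 1.99e-05). The 3 ages did not overlap.

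YDR261C-D (chrIV:987534-992349) had 296, 275, 364 and 270.4 normalised counts at 48 h against 30.4, 25.8 and 24.0 at log phase on glucose (2.44 ± 0.14, log2, SE, limma adjusted p = 1.9e-05), and at 24 h it already had 194, 199, 238 and 205. YOL103W-B (chrXV:118000-123268) had 142, 167, 192 and 192 against 21.4, 7.37 and 17.7 (2.22 ± 0.28, limma adjusted p = 0.000393). Both copies are low at log phase, unlike the chromosome X pair. YPR158C-D had 310, 294.5, 281 and 299 against 77.6, 56.5 and 55.3 (1.44 ± 0.09, limma adjusted p = 2.4e-05), and YLR227W-B had 297, 343, 438.5 and 234 against 97.8, 67.6 and 48.0 (1.466 ± 0.26, limma adjusted p = 0.0021). In each of the 6 rows the lowest 48 h sample lay above the highest log-phase sample. At 24 h on glucose 18 of 50 members were called (7 higher and 11 lower; 13 and 1 on the deposited scale), where 26.3% of all genes were (11.8% higher and 14.5% lower). All 6 rows were already called then on both scalings. The other row called higher was YIL082W, which passed the filter on low values only through the aged samples. When each of the 7 libraries was left out in turn, YDR261C-D and YOL103W-B kept the call in limma every time, YJR027W 5 times, YJR029W 2 times, and YLR227W-B and YPR158C-D 1 time each. Without the log-phase sample of lane6854 the changes of YJR027W, YJR029W, YLR227W-B and YPR158C-D were 1.67, 1.61, 1.16 and 1.09, and none was called. With only the experiments found at both ages YDR261C-D and YOL103W-B alone of the 6 were called, and without lane6854 altogether YOL103W-B, at 1.93, was not. The count at 24 h was 9 without that sample, 10 without the log-phase sample of E30_2 and 8 without the 24 h sample of E30_1.

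Other copies of the same class did not rise over the same time. YMR045C had 439, 496, 785.5 and 627 normalised counts at 48 h against 682, 636 and 410 at log phase on glucose, and YNL284C-B (chrXIV:96964-102232) had 105, 105, 119 and 120 against 119, 123 and 146. The groups of both rows overlapped, and YNL284C-B was called lower on the quantile scale (-1.12 ± 0.11, limma adjusted p = 0.000118) but not on the deposited one (-0.20). There were 3 TYA rows, each the Gag part of 1 copy, that fell on both scalings, by more on the quantile scale. YMR046C had 68.98, 79.95, 91.4 and 87.2 at 48 h against 239, 251 and 137 at log phase (-2.22 ± 0.19, limma adjusted p = 8.7e-05; -1.31 on the deposited scale). YBL005W-A changed by -2.71 ± 0.23 (limma adjusted p = 7.9e-05; -1.18 on the deposited scale). YHR214C-C had 18.3, 24.3, 17.7 and 21.2 against 38.2, 38.1 and 26.1 (-2.35 ± 0.15, limma adjusted p = 2.98e-05; -0.73 on the deposited scale). Deposited values of 23 members were higher at 48 h without overlap of the groups, and of 5 lower, where 35.7% of all genes tested were higher and 32.3% lower without overlap.

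Relative to the copy as a whole, the Gag part was lower at 48 h than at log phase on glucose, without overlap, in 3 of the 8 copies whose TYA row has at least 100 windows that occur once and a mean log2 value of at least 2. The TYA row YMR046C amounted to 35.9% of the TYA-TYB row YMR045C on glucose at log phase (33.3% to 39.4%), 21.8% at 24 h and 14.3% at 48 h (11.6% to 16.1%), so the ranges at log phase and 48 h were apart. On galactose it was 25.5% at log phase (19.1% to 36.2%), 25.9% at 24 h and 25.5% at 48 h (18.6% to 35.7%). YOL103W-A, Gag of a copy that rose, was 62.5%, 23.9% and 21.4% of its copy on glucose at log phase, 24 h and 48 h, and YBL005W-A was 13.9%, 8.98% and 7.99%. In the others the ranges at log phase and 48 h overlapped, among them YPR158C-C at 26.1%, 27.7% and 26.7% at the same ages and YNL284C-A at 43.6%, 36.9% and 40.04%. Whether reads of other copies enter these shares was not tested.

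On galactose the calls were few, and the copies that moved were among the 6. At 24 h no member of 46 was called, where 2.12% of all genes were (1.59% higher); 16 had an unadjusted p under 0.05 in limma (9 higher and 7 lower), the voom fit called 0, and 2 were called on the deposited scale. At 48 h, where 4.34% of all genes were called (2.8% higher), 2 members rose on both scalings. YPR158C-D had 198, 179 and 158 normalised counts at 48 h against 67.0, 49.8 and 59.0 at log phase (1.25 ± 0.17, log2, SE, limma adjusted p = 0.00694), and YOL103W-B had 100, 106 and 95.1 against 21.8, 16.9 and 7.50 (2.18 ± 0.32, limma adjusted p = 0.00851). With the experiment as a block, which the samples of this comparison call for, both lost the call in limma at unchanged size and 1 member in all was called. No member was called without the log-phase sample of E34 or any 1 of the 48 h samples, and 5 were without the log-phase sample of lane6854. YJR027W had 1390.0, 1680.0 and 864 at 48 h against 482, 766 and 253 at log phase, apart but not called. On fructose at 48 h, with 16.4% of all genes called (8.82% higher and 7.6% lower), 18 of 47 members were (3 higher and 15 lower; 6 higher on the deposited scale), and YDR261C-D, YOL103W-B and YPR158C-D rose on both scalings. None of these 3 calls on fructose held in limma when either 48 h sample was left out, since 0 members were then called.

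**Figure D3:**
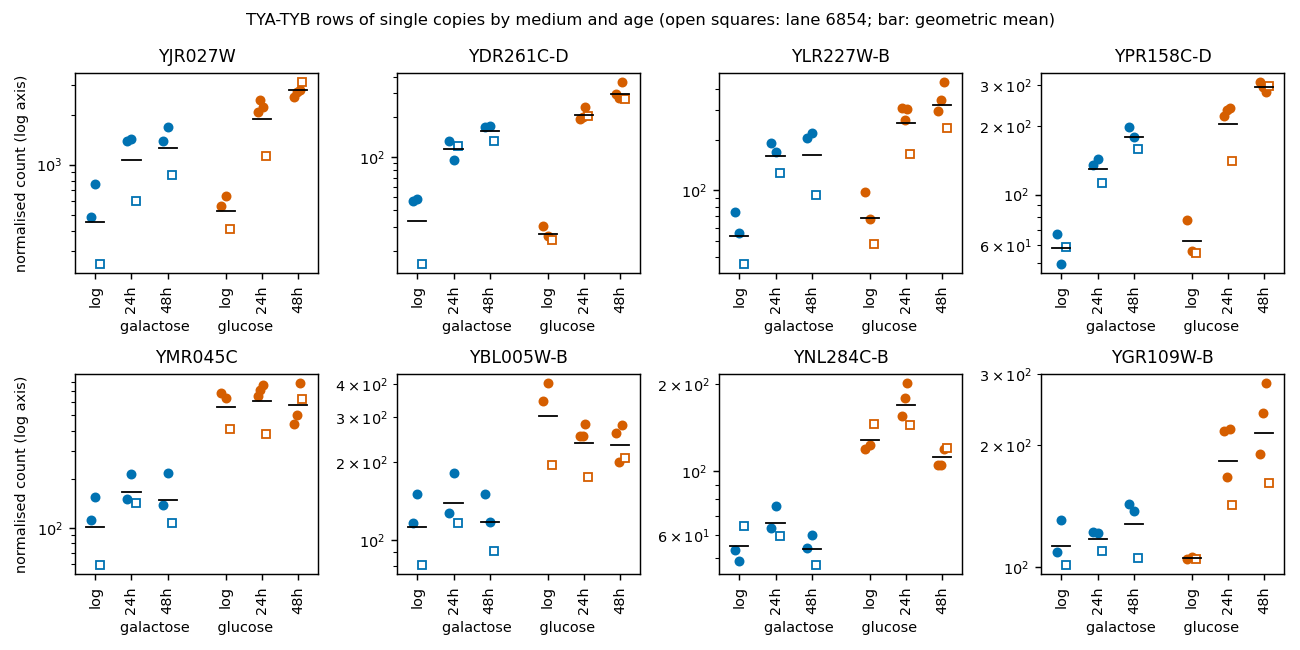
Each panel gives 1 TYA-TYB row, with its normalised count in each wild-type sample on a log axis against age (log phase, 24 h, 48 h) for galactose and glucose; open squares are lane6854 and bars the geometric mean. YJR027W, YDR261C-D, YLR227W-B and YPR158C-D climb with age on glucose, whereas YMR045C, YBL005W-B and YNL284C-B differ by sugar at log phase, and the Ty3 row YGR109W-B is level on galactose.

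At log phase the sugar separated Ty1 copies that had not risen with age. Between galactose and glucose at log phase 9 of 47 members were lower and none higher, where 6.43% of all genes were higher and 3.04% lower (9.47% in all). On both scalings 7 fell: YBR012W-B, YHR214C-B with its Gag row YHR214C-C, YMR045C with YMR046C, and YNL284C-B with YNL284C-A. YMR045C had 111, 155 and 59.0 normalised counts on galactose against 682, 636 and 410 on glucose (-2.66 ± 0.36, log2, SE, limma adjusted p = 0.00479). YHR214C-B (chrVIII:543964-549346) had 30.6, 24.2 and 27.2 on galactose against 170, 158.5 and 105 on glucose (-2.64 ± 0.21, limma adjusted p = 0.000756). YNL284C-B had 53.2, 49.1 and 64.7 against 119, 123 and 146 (-1.57 ± 0.19, limma adjusted p = 0.0035), and the Gag row YHR214C-C had 2.42, 4.396 and 1.87 (3, 6 and 2 reads) against 38.2, 38.1 and 26.1. That row passed the filter on low values through the glucose samples, so no fold change is given for it. In all 4 rows the highest galactose sample lay well under the lowest glucose sample. Of the 47 members 16 were lower without overlap and 0 higher, where 24.8% of all genes tested were lower and 23.1% higher. None of the 6 rows that rose with age on glucose was called at log phase.

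These copies kept their distance in older cells to different degrees. YMR045C had 150, 216 and 142 normalised counts on galactose against 657, 717, 768 and 383 on glucose at 24 h (-1.90 ± 0.27, log2, SE, limma adjusted p = 0.00226), and 138.5, 218 and 107.5 against 439, 496, 785.5 and 627 at 48 h (-1.80 ± 0.26, limma adjusted p = 0.00252). YNL284C-B had 54.4, 60.4 and 47.5 on galactose against 105 to 120 on glucose at 48 h, a difference of -0.60 ± 0.11 (limma adjusted p = 0.00533). YHR214C-B had 45.8, 42.5 and 55.8 against 88.0, 71.9, 109 and 119 at 48 h. All of these were without overlap. At 24 h 15 of 50 members were lower without overlap and 1 higher (19.6% and 19.7% of all genes tested). At 48 h 23 of 50 were lower and 0 higher (23.4% of all genes tested in each direction). At 48 h the copies that rise with age were also lower on galactose, with YJR027W at 1390.0, 1680.0 and 864 against 2556 to 3133 (-1.35 ± 0.20, limma adjusted p = 0.0026). At 24 h 8 of 50 members fell on both scalings (14.7% of all genes were called on the quantile scale, 7.82% higher and 6.84% lower), and at 48 h 7 did, YDR261C-D, YJR027W, YJR029W, YMR045C, YMR050C, YNL284C-B and YPR158C-D (13.7% of all genes called, 6.56% higher and 7.18% lower). The 8 at 24 h include YIL082W, which passed the filter on low values only through the glucose samples. With the experiments E34 and lane6854, which both sugars share, as a block, the calls came to 2, 0 and 1 members in the 3 ages. Deviations within these experiments correlated (r of 0.122 to 0.523), so these comparisons call for the block. Leaving out the galactose sample of lane6854 reduced the calls in limma from 9 members in all to 3 at 24 h and from 8 to 3 at 48 h, and YMR045C then stood at -1.78 and -1.58 without the call. Without the galactose sample of E34 the counts were 5 and 3, and YMR045C, at -1.83 and -1.73, was again not called; without that of E56 the count at 48 h was 5. The count at log phase was 2 without the galactose sample of E34, 3 without the glucose sample of E30_2 and 4 without either other glucose sample, and YMR045C lost the call without any of these 4 and over all single libraries left out its value ran from -3.01 to -2.33.

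The ageing changes themselves differed between the sugars for 6 Ty1 rows, all with a larger value on galactose (5.63% of all genes tested were called in that direction, 7.76% in the other and 13.4% in either). YHR214C-B had a difference of 1.60 ± 0.31 (log2, SE, limma adjusted p = 0.00361). Its Gag row YHR214C-C had 7.42, 5.66 and 15.5 normalised counts on galactose at 48 h, against the 2 to 6 reads at log phase given above, too few to size a change. These 2 rows of 1 copy were the only ones called the same way on both scalings. Without 1 of 5 libraries the count in limma was 2 (the 48 h galactose sample of E34 or the log-phase glucose sample of E30_2) or 3 (the log-phase glucose samples of E34 and lane6854, and the log-phase galactose sample of E56). No Ty2, Ty3 or Ty4 row was called in this comparison on the quantile scale. On the deposited scale 1 Ty3 row and 1 Ty4 row were called, both with a smaller value on galactose.

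Ty3 rows are the ones whose reads are best assigned, and they carried the class. YGR109W-B had 190.0, 240.9, 285.1 and 161.2 normalised counts at 48 h against 104.5, 105.7 and 104.4 at log phase on glucose, apart in every sample. On the quantile scale the change was 0.32 (limma adjusted p = 0.288) and it was not called, while on the deposited scale it was 1.03 and called. YIL082W-A behaved alike, with 200.6, 262.1, 284.1 and 175.1 against 98.91, 92.15 and 113.8 (0.47, limma adjusted p = 0.109; 1.16 and called on the deposited scale). On galactose YGR109W-B had 143.4, 137.8 and 105.4 at 48 h against 108.9, 130.4 and 101.2 at log phase, an overlap. YIL082W, the Gag row of the chromosome IX copy, had 17.7, 13.2, 19.8 and 5.85 at 24 h against 1.12, 1.23 and 0.939 at log phase on glucose, which is 6 to 18 reads against 0 or 1. It passed the filter on low values only through the aged samples, so it is given without a fold change or test. On galactose it had at most 2.81 in any wild-type sample of that table.

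The rows on chromosome XII right of the rDNA and the Ty4 rows were among the members that depend on the scale. YLR227W-B rose, as given above. YLR410W-B, the leading Ty2 row, had 85.2, 72.9, 71.8 and 74.7 normalised counts at 48 h against 132.6, 73.7 and 88.7 at log phase on glucose, an overlap, with -1.47 on the quantile scale and -0.33 on the deposited scale. Its Gag row YLR410W-A (chrXII:941483-942799) had 7.04, 6.07, 5.90 and 1.465 against 19.1, 11.1 and 18.8 (-3.54 ± 0.37, log2, SE, limma adjusted p = 0.000169, and -1.85 without the call on the deposited scale). YLR256W-A (chrXII:651117-652439), a Gag row, had a median of 5.30 over the largest table. YJL113W of Ty4 had 61.2, 78.9, 54.1 and 83.5 against 48.3, 50.4 and 40.7 on glucose, all aged samples above the log-phase ones, yet it was called lower on the quantile scale (-0.86, limma adjusted p = 0.00246) and was at 0.56 on the deposited scale. YHL009W-B (chrVIII:85909-91318), the other Ty4 row, had 9.15 to 16.1 at 48 h against 3.13 to 4.92, with -0.19 on the quantile scale and 1.63 on the deposited scale.

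Media shifts asked whether sugar early or late in life sets these levels, in separate experiments (E53, E53_2 and E53_3). The difference between the sugars at log phase was found again: Ty1 was at 2680, 2780 and 2369 on galactose against 4282, 4412 and 3936 on glucose, without overlap (-0.69 ± 0.09, log2, SE, n = 3 each). No member of 46 was higher and 21 were lower, 12 of them on both scalings, where 55.3% of all genes were called (33.2% lower). YMR045C had 174, 121 and 142 on galactose against 588.5, 661 and 636 on glucose (-2.34 ± 0.14, limma adjusted p = 3.6e-05). YNL284C-B had 48.95, 50.4 and 51.02 against 112, 115 and 117 (-1.59 ± 0.04, limma adjusted p = 4e-06) and YBL005W-B had 124, 139 and 140 against 302, 369 and 304 (-1.53 ± 0.09, limma adjusted p = 4.3e-05). In each of these 3 copies all galactose samples lay under all glucose samples. Of the 46 members 16 were lower without overlap and 7 higher, where 36.7% and 36.2% of all genes tested were. The share of members lower is near that over all genes.

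At 24 h in these experiments Ty1 was at 6504, 4333 and 5113 on galactose against 11609, 7817 and 9642.5 on glucose (-0.87 ± 0.24, without overlap), and Ty3 at 229, 189 and 222 against 557, 328 and 303 (-0.84 ± 0.29, without overlap). Of 51 members that passed the filter 4 fell on both scalings, YBL005W-B, YHR214C-B, YMR046C and YNL284C-B, where 4.18% of all genes were called (2.85% higher and 1.33% lower), and YNL284C-B changed by -1.31 ± 0.10 (limma adjusted p = 0.000483). The count in limma was 1 without the galactose sample of E53_3, and 2 without either other galactose sample or the glucose sample of E53.

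After a move to galactose Ty1, Ty3 and Ty4 were lower than without it, and Ty2 overlapped. Cells moved to galactose at 24 h (YPD->YPGal) had Ty1 at 13945, 13101 and 12676, against 15161, 27183 and 27584 in cells kept on glucose (YPD->YPD), without overlap (-0.77 ± 0.29, log2, SE, n = 3 each; -0.95 on the quantile scale). Ty3 was at 418, 389 and 494 against 652, 558 and 795 (-0.62 ± 0.18, without overlap), and Ty4 at 78.1, 62.2 and 57.3 against 126, 94.3 and 96.0 (-0.68 ± 0.19, without overlap). YJR027W had 3870, 3837 and 3610 against 4449, 7431 and 7817, a difference of -0.86 ± 0.19 (limma adjusted p = 0.0352) that was not called. No member of 57 was called in limma, where 3.22% of all genes were (2.41% higher and 0.818% lower), although 28 had groups apart and lower and 0 apart and higher (20.2% and 16.9% of all genes). At an unadjusted p under 0.05 in limma there were 23 (1 higher and 22 lower), the voom fit called 7 lower, and without the YPD->YPD sample of E53, the lowest of its group, limma called 4.

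The opposite move gave higher sums. Cells moved to glucose (YPGal->YPD) had Ty1 at 11104, 8663 and 9380.5 against 6606, 5813 and 8120 in cells kept on galactose (YPGal->YPGal), without overlap (0.51 ± 0.18, log2, SE, n = 3 each), and Ty3 at 445, 285 and 302 against 237, 237 and 264 (0.46, without overlap). Ty2 was at 440, 387 and 384 against 333, 337 and 266 (0.38 ± 0.13, without overlap; 0.17 on the quantile scale), and Ty4 overlapped. Of 48 members 2 rose on the quantile scale, where 7.17% of all genes were called (2.45% higher and 4.72% lower). YBL005W-B had 310, 304 and 252 normalised counts against 145, 149 and 185 (0.86 ± 0.12, limma adjusted p = 0.00522), and YGR038C-B had 1327, 1015 and 834.9 against 293.8, 215.8 and 452.0 (1.80 ± 0.29, limma adjusted p = 0.00941). Each lost the call in limma without any 1 of 5 of the 6 libraries, at values of 0.79 to 0.94 and 1.55 to 1.95. Groups were apart and higher for 23 members and apart and lower for 0 (18.2% and 19.4% of all genes). The Ty3 row YGR109W-B had 191.4, 203.9 and 247.1 after the move to galactose against 297.2, 275.5 and 359.6 without it, and 223.3, 147.6 and 151.8 after the move to glucose against 119.3, 121.2 and 137.4 without it, with no overlap in either pair. Groups that differed only in early sugar were apart too. With galactose late, Ty1 was at 12676 to 13945 after early glucose and 5813 to 8120 after early galactose. With glucose late, it was at 15161 to 27584 and 8663 to 11104. Ty3 was at 389 to 494 against 237 to 264 with galactose late, and at 558 to 795 against 285 to 445 with glucose late. Ty4 overlapped in both cases. Early sugar was not tested.

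**Figure D4:**
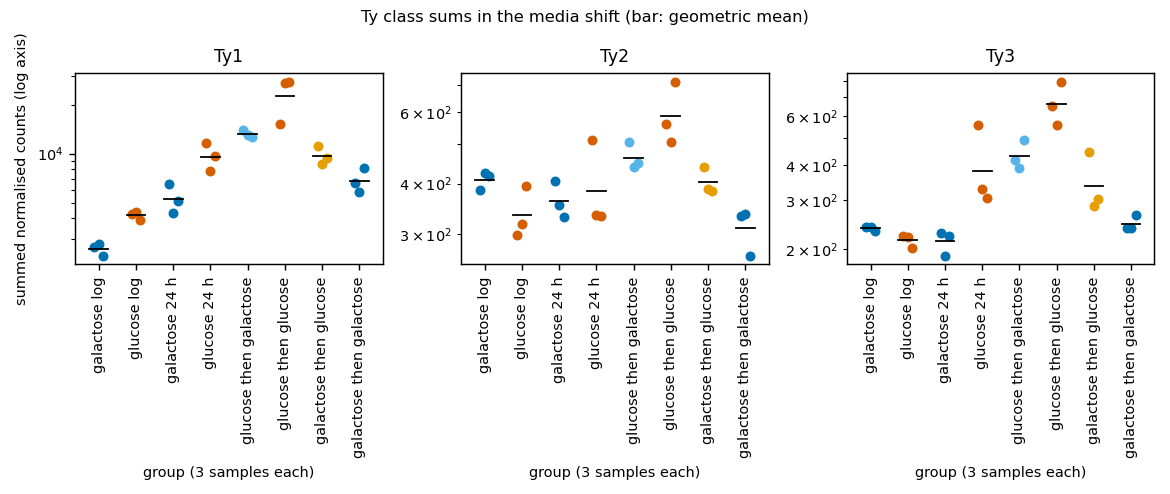
The Ty1, Ty2 and Ty3 sums in normalised counts on a log axis are given for each of the 3 experiments in the 8 media shift groups, with bars at the geometric mean. Ty1 and Ty3 lie lower after the move to galactose (13945 and 494 at most) than in YPD->YPD (15161 and 558 at least), and higher after the move to glucose than in YPGal->YPGal.

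The cox9 gal80 cells, which cannot respire, had more Ty1 RNA on galactose than wild type. In cox9 gal80 at 48 h Ty1 was at 11444 and 12035, against 5329, 6319 and 3070 in wild type on galactose, 2.50-fold higher (1.32 ± 0.32, log2, SE, n = 2 and 3, without overlap). Both cox9 gal80 samples come from E56, and against the wild-type sample of that experiment alone the difference was 0.89. Log-phase cox9 gal80 samples were at 3678 and 2296 and those at 24 h at 8767 and 9969. Ty2 was also apart at 48 h (612 and 543 against 338 to 406, 0.64 ± 0.11), as was Ty3 (392 and 302 against 192 to 283, 0.51), while Ty4 overlapped (0.07 on the deposited and -0.48 on the quantile scale). YJR027W had 3223 and 3380 against 1390.0, 1680.0 and 864, and its difference of 1.57 ± 0.27 (limma adjusted p = 0.0426) was not called. No member of 49 was called, where 0.167% of all genes were (0.0334% higher and 0.134% lower), but 34 were apart and higher and 0 apart and lower (24.1% and 20.8% of all genes), 23 had an unadjusted p under 0.05 in limma (19 higher and 4 lower), and the voom fit called 3 higher.

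The other strains with 2 samples per age differed less. PGPD-HAP4 on glucose at 48 h had Ty1 at 7313 and 9770 against 9213 to 11138 in wild type on glucose, an overlap (-0.22 ± 0.22). No gene at all was called in limma there, although 498 had an unadjusted p under 0.05 and voom called 24, and 9 of 53 members had an unadjusted p under 0.05 (2 higher and 7 lower), with 0 members called by voom. cat8 on galactose at 48 h had 4673 and 6696 against 5329, 6319 and 3070 in wild type (0.25 ± 0.41, an overlap), with no member of 48 called in limma where 0.235% of all genes were (0.0336% higher), 5 at an unadjusted p under 0.05 and 0 by voom. The snf4 strain on galactose stood far above wild type on the same sugar: Ty1 was at 14609 at log phase against 1112 to 2819, and at 21053 and 16277 at 24 h against 2462 to 5342. Its Ty2 sum was 1959 at log phase against 427 to 528, with the Ty2 row YBL100W-B at 471.2 against 46.9 to 71.0, and its Ty3 sum was 241 against 199 to 239. At 24 h its Ty2 sum was 894 and 995 against 339 to 395. Its Ty3 sum at 24 h was 359 and 406 against 217 to 265. No test was run on snf4.

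Among the strains on glucose, with 1 sample per strain and age and therefore no replicate check, Ty1 at 48 h was lowest in cat8 (5166) and tec1 (6178) and highest in rox1 (18907) and gcn4 (17001), against 9638 and 9998 in wild type. The strains come from experiments E51 and E57 (gcn4 and hap4) and the wild-type samples from E30_2 and lane6854, so strain and experiment cannot be told apart against wild type. Next to the lowest came clb5 (8487) and yak1 (9491), and next to the highest dot6 tod6 (16854), hap4 (15038), adr1 (14988) and sip4 (12721); mig1 (10855), snf4 (11025) and pmr1 (11619) were closer to wild type. At log phase pmr1, which lacks a calcium and manganese pump of the Golgi, was highest at 7566, while tec1 was at 2876, gcn4 at 4123 and rox1 at 2246, against 3981 and 2505 in wild type. The wild-type samples differed more from each other at log phase than at 48 h.

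The tec1 sample at 48 h parted Ty1 from Ty3. Tec1 is the transcription factor for which the CATTCC core is named above. Of the Ty1 copies given here, those of YDR261C-D and YLR227W-B lacked the core in the bases searched. Those of YJR027W, YPR158C-D, YMR045C and YNL284C-B had it. A link between the core and the values in tec1 was not tested. At 48 h Ty1 was at 6178 there, near the lowest, whereas Ty3 was at 1088, the highest of all strains, against 534 and 353 in wild type and 278 to 729 in the other strains. YJR027W had 1399 normalised counts in tec1 against 2789 and 3213 in wild type, YDR261C-D had 102.9 against 282.0 and 277.3, YPR158C-D had 99.7 against 301.6 and 306.6, and YLR227W-B had 131.2 against 351.4 and 239.7. YMR045C, a copy not called with age, had 408.4 against 507.9 and 643.2, and YNL284C-B had 167.3 against 107.8 and 123.2. At log phase the same tec1 rows were at 483.6 for YJR027W against 575.1 and 416.3 in wild type and 16.9 for YDR261C-D against 31.1 and 24.4. Both Ty3 copies were higher in tec1 at 48 h: YGR109W-B had 497.9 against 246.7 and 165.3, and YIL082W-A had 501.8 against 268.5 and 179.6. The cat8 sample at 48 h was low in the same Ty1 rows (YJR027W 1302 and YDR261C-D 97.3) and also in Ty3 (YGR109W-B 128.0).

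**Figure D5:**
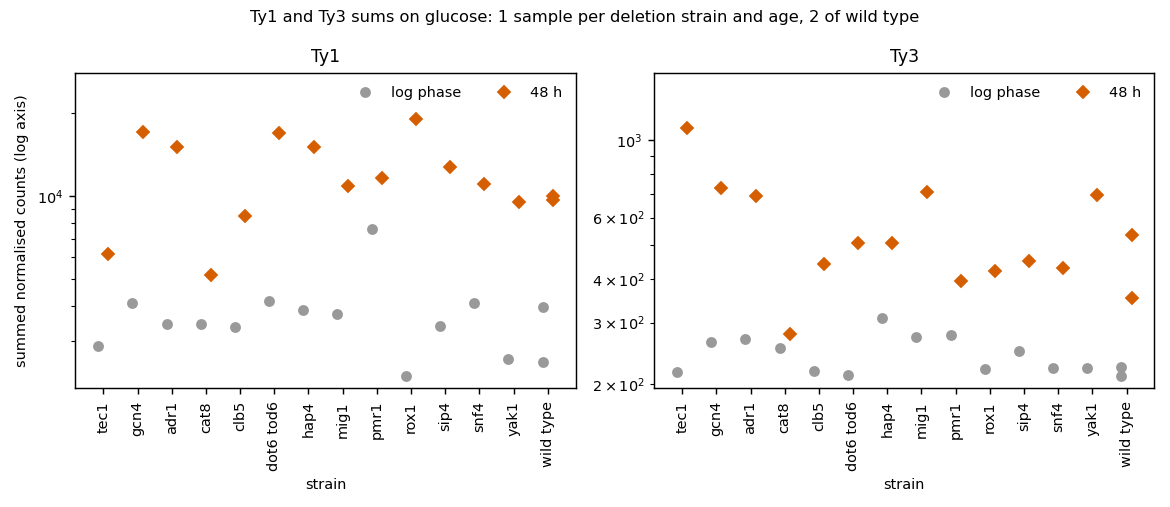
The Ty1 sum and the Ty3 sum in normalised counts are given for each strain on glucose at log phase and at 48 h, 1 sample per strain and age and 2 for wild type, on a log axis. In tec1 at 48 h Ty1 is 6178, under both wild-type samples, and Ty3 is 1088, above every other strain.

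Sorted PGPD-HAP4 cells at 48 h had most Ty RNA in the fraction with the lowest WGA staining. In E36 the titles name this fraction by high GFP, the tag on the mitochondrial protein Tom70, and the high WGA fraction by low GFP. Ty1 was at 77957 and 32741 in the low fractions of E36 and E66 and at 10332 and 3308 in the medium ones, against 13161 and 4607 in the high ones. In both experiments low was above high for Ty1 (2.70 ± 0.98, log2, SE, n = 2 each, without overlap), and medium was below high. Ty2 had 2986 and 1263 in low against 272 and 182 in high (3.12 ± 0.68), Ty3 had 1047 and 499 against 287 and 157 (1.77 ± 0.69) and Ty4 had 288 and 90.8 against 50.8 and 11.7 (2.73 ± 1.35). The medium fractions of E36 and E66 were above the high ones for Ty2 (570 and 229), Ty3 (487 and 189) and Ty4 (75.5 and 12.6). Wild-type fractions, 1 of each, had Ty1 at 28744 in low against 10804 in high. No member of 58 was called in limma, where 3.43% of all genes were (3.18% higher); 19 had an unadjusted p under 0.05, all higher, the deposited scale gave 6 higher and voom 13 higher. Groups were apart and higher for 48 members and apart and lower for 0 (40.8% and 34.7% of all genes). The sorted libraries include the shallowest of the series, and the part of depth in these values was not tested.

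Host genes of the Ty life cycle were tested in the same fits, in 4 lists. Their calls are from the quantile scale alone and were not checked on the deposited scale, so rose and fell are used here in that sense. Of 9 genes for DNA-binding factors of Ty promoters, TEC1 rose in wild type on each of the 3 sugars tested: by 2.36 on glucose at 48 h (log2, limma adjusted p = 3.6e-05), by 1.71 on galactose at 48 h (limma adjusted p = 0.00134) and by 2.66 on fructose at 48 h (limma adjusted p = 0.00263). GCN4 rose by 0.77 on glucose (limma adjusted p = 0.000228), and RAP1, a general regulator, fell by 1.30 (limma adjusted p = 0.000102), giving 2 higher and 1 lower. The ageing change of GCN4 was lower on galactose than on glucose (-0.79, limma adjusted p = 0.00309). Of 13 genes for RNA polymerase III and its factors, 6 were lower and none higher at 48 h on glucose, where 28.5% of all genes were lower and 20% higher. Of 10 coactivator genes SNF2 and SNF6 were higher (0.40 and 0.56) and GCN5, SPT20 and SWI3 lower (-0.64, -0.58 and -0.40), and of 16 regulators of transposition 7 were lower and none higher, with RTT109, a histone acetyltransferase, at -0.90 and HIR2, a histone gene corepressor, at -0.86. On galactose at 48 h TEC1 and RAP1 were the only genes of these lists that were called. Between galactose and glucose at 48 h RAP1 was higher (0.60) and FUS3, a kinase of the mating pathway that restrains Ty1, was lower (-1.20, limma adjusted p = 0.00379). In PGPD-HAP4, cox9 gal80, cat8, the shift to galactose, the shift experiments at 24 h and the sorted fractions none of the genes was called by limma.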

How the data were processed

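RNA-seq of 118 samples (128 columns in 4 tables, 6692 rows each) was used, with mitochondrial rows left out. The authors trimmed 75 bp single reads with Trim Galore 0.6.6, aligned them with HISAT2 2.1.0 to R64-1-1 and used SeqMonk to count reads of the strand opposite to a reading frame. The deposited log2 values are counts scaled by size factors within a table. They fall on whole reads, with rows of 0 reads placed at 0.9 of a read, and whole reads were recovered for the voom fit. The study itself applied quantile normalisation before its tests.

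The test for rows was limma 3.58.1 (R 4.3.3) after quantile normalisation and without a block. Genes under a mean log2 of 2 (4 normalised counts) were left out, and the adjusted p had to be under 0.01. Class sums carry no test: the SE is that of a difference of mean log2 sums. It was computed from the spread within each group, without pairing by experiment. Where samples are paired it therefore includes the spread between experiments. Tables were read with Python 3.11.15, numpy 2.4.6, pandas 2.3.3 and matplotlib 3.10.9. The scripts were tested on simulated data. Depth is given with the samples above, and a difference under a few reads in a row is not detectable.

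The members, the host lists and the named rows were chosen with earlier results of these data known. The rule named, for each comparison, the class sums, the members of largest and smallest difference, the leading TYA-TYB row of each class, all Ty3 and Ty4 rows, rows on the right part of chromosome XII, and tec1 and gcn4 among the deletion strains. The other rows with values, such as YDR261C-D, YOL103W-B, YPR158C-D, YMR045C and YNL284C-B, were added after their values were seen. The 2 rows outside annotated elements, YDR170W-A (chrIV:803195-804517) and YLR035C-A (chrXII:215440-218907), were classed by shared 20-base words, of which 71.2% and 95.1% occur in Ty1.

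The titles give samples the experiment they come from. Some comparisons with 3 pairs had r over 0.1 between deviations of the same experiment in every pair, so these samples are paired. They were galactose at 48 h against log phase (0.117 to 0.206) and YPD->YPGal against YPD->YPD (0.104 to 0.154). The others were the media shift experiments at log phase (0.12 to 0.189) and 24 h (0.172 to 0.336). Galactose against glucose shares only E34 and lane6854, and r was over 0.1 in both for every age. In lane6854 r was 0.523 (log phase), 0.424 (24 h) and 0.379 (48 h), against 0.299, 0.181 and 0.122 in E34. These samples are paired too, and the main fits had no block. Alternatives were no quantile normalisation, no filter on low values, a filter on the log-phase or control group alone, a change of at least 2-fold, voom on whole reads, a block for the experiment, only experiments found in both groups, recovered reads scaled to library size, the median over rows in place of the sum, and leaving out each sample. Leaving out the YJR027W and YJR029W copies, using rows with at least 100 windows that occur once, and leaving out lane6854 were chosen after seeing the data.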

Additional observations from a re-analysis of the deposited data

Results flagged for a closer look

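The ageing change to 48 h differed between galactose and glucose by limma's interaction test for 6 Ty1 rows, each with a larger value on galactose. The difference was 2.37 for YBL005W-A (limma adjusted p = 0.00277), 1.60 for YHR214C-B (limma adjusted p = 0.00361) and 3.10 for YHR214C-C (limma adjusted p = 0.00126). It was 2.13 for YMR046C (limma adjusted p = 0.00904), 1.28 for YNL284C-A (limma adjusted p = 0.00902) and 1.31 for YNL054W-A (limma adjusted p = 0.00386). YHR214C-C had only 2 to 6 reads in each log-phase galactose sample, which is too few to size a change. Its difference and p-value are printed as the fit gave them and are not read as a size. Of these rows 5 are TYA rows, and YHR214C-B is the TYA-TYB row of the copy that holds YHR214C-C.

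In wild type on glucose at 48 h the Gag row YLR410W-A had 1.465 normalised counts in lane6854, against 5.90 to 7.04 in the other 3 samples, a gap of 0.887 of the range of its log2 values. Over the 31 groups and measures examined for such a sample, chance alone would mark about 1 in 20.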

How the results depend on the processing

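Under the alternatives 211 values of the Ty1 difference stayed within 1 SD of the value given above and 19 moved further, and 158 counts of members called stayed within 1.5 times while 69 did not. On deposited values without quantile normalisation the count of members called was 2 for galactose at 24 h, 6 for fructose, 17 for galactose against glucose at 48 h and 6 for the sorted fractions. With no filter on low values it was 0 for galactose at 48 h, 5 for fructose, 4 and 5 for galactose against glucose at log phase and 24 h, 2 for the shift experiments at 24 h and 0 for YPGal->YPD. Asking for at least 2-fold left 5 for galactose against glucose at 48 h and 1 for YPGal->YPD, and a filter on the wild-type group alone gave 1 for cox9 gal80. The voom fit called 3 in cox9 gal80, 7 for each of the shifts and 13 in the sorted fractions. With a replicate block for the experiment 3 were called for glucose at 24 h (of the 6 rows that rose, YDR261C-D alone), 1 for galactose at 48 h, 3 for fructose, 2, 0 and 1 for galactose against glucose at log phase, 24 h and 48 h, 1 for the difference in ageing change and 0 for YPGal->YPD, and no other count of calls moved by over 1.5 times under the block. With only experiments found in both groups 8 were called for glucose at 24 h, 0 for galactose against glucose at each age and 0 for the difference in ageing change. Without lane6854 the count was 9 for glucose at 24 h and 3 for galactose against glucose at 48 h. Leaving out 1 sample at a time gave 8 to 15 members for glucose at 24 h, 0 to 1 for galactose at 24 h, 0 to 5 for galactose at 48 h, 0 to 6 for fructose, 2 to 9, 3 to 11 and 3 to 8 for galactose against glucose at log phase, 24 h and 48 h, 2 to 9 for the difference in ageing change, 1 to 4 for the shift experiments at 24 h, 0 to 4 for YPD->YPGal and 0 to 2 for YPGal->YPD. The Ty1 difference without the YJR027W and YJR029W copies was 0.63 and 0.80 for glucose at 24 h and 48 h, 0.74 for fructose, 0.28 for the difference in ageing change, -1.19 for the shift experiments at log phase and 0.87 for YPGal->YPD. The median over Ty1 rows was 0.27 and 0.10 for glucose at 24 h and 48 h, 0.59 for galactose and -0.32 for fructose at 48 h, 0.40 for the difference in ageing change, 0.71 for cox9 gal80 and -0.052 for the shift experiments at log phase. Rows with at least 100 windows that occur once gave 1.13 for glucose at 48 h and -0.87 for the shift experiments at log phase, recovered reads scaled to library size gave 2.12 and -0.54, quantile-normalised values gave -0.80 for those shift experiments, and only experiments in both groups gave 0.89 for cox9 gal80. On deposited values 5 Ty4 results and 1 Ty3 result changed sign: YJL113W was at 0.19 and 0.56 for glucose at 24 h and 48 h and at 0.17 for the shift experiments at log phase, YHL009W-B at 1.63 for glucose and 0.36 for fructose at 48 h, and YIL082W-A at 0.052 for the shift experiments at log phase. The cause of these changes was not tested. Among the named rows 4656 values under an alternative kept their call, 355 lost it, 92 gained one and 6 changed sign. Rows under 4 normalised counts were not tested.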

Other observations

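Media with 1 sample per age gave these Ty1 sums. On sucrose log-phase cells had 2797, and the aged samples had 5644 (24 h) and 10760 (48 h). On raffinose with galactose the same ages had 1659, 5149 and 4416. On raffinose alone Ty1 was at 1167 at log phase and 12037 at 48 h. On acetate log-phase cells had 2086, and aged ones 7089 (48 h) and 4114 (72 h).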
